A study of Homo sapiens with 20 samples.

Results

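The 10 genes described here are the receptors NOTCH1, NOTCH2 and NOTCH3, the ligands JAG1, JAG2 and DLL1, the DNA-binding factor RBPJ, and the target genes HES1, HES4 and HEY1. They were chosen by name from the 23368 gene rows of an RNA-seq count table. The study treated 2 human carcinoma lines with TGFβ, an siRNA against the transcription factor KLF10, or both, to test KLF10 as a negative feedback regulator of epithelial-to-mesenchymal transition. Panc1 is a line from a pancreatic ductal carcinoma and A549 a line from a lung adenocarcinoma; the labels describe both as immortalised with SV40 large T antigen. Each line had 4 groups, siKLF10+TGFb, TGFb, siKLF10 and siCont, with 3 libraries (A, B and C) per group in Panc1 and 2 (A and B) in A549, so 20 libraries in all. The groups named for TGFβ received 5 ng/ml of it over 72 h. The labels name no siRNA for the TGFb libraries, and siCont libraries received control siRNA. Contrasts that use the TGFb libraries may therefore also compare cells with and without an siRNA. Nothing in the labels says that replicates came from separate cultures, so the p-values below measure spread among libraries that may be technical in origin.

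Notch receptors are cleaved after a ligand of the Jagged or Delta-like family on a neighbouring cell binds them, and the freed intracellular domain moves to the nucleus and joins RBPJ and a Mastermind coactivator on DNA. HES and HEY genes, which encode transcriptional repressors, are the classic targets of this complex. In epithelial cancer cells JAG1 and HEY1 are known as genes that TGFβ can induce through SMAD proteins.

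Promoter windows from the RefSeq promoter table of GRCh38.p14 were read for 8 of the 10 genes. No window was read for HEY1 or DLL1, which does not show that the table lacks them. Each window covers 250 bases before to 50 bases after the transcription start. The windows of 3 genes are shown. JAG1 and HES1 passed in TGFb against siCont (HES1 in Panc1 only), and HES4, a HES family gene, did not pass in that comparison. Capitals mark the letters TGGGAA, the core bound by RBPJ, searched on both strands.
HES1 promoter, chr3:194135898-194136197, plus strand: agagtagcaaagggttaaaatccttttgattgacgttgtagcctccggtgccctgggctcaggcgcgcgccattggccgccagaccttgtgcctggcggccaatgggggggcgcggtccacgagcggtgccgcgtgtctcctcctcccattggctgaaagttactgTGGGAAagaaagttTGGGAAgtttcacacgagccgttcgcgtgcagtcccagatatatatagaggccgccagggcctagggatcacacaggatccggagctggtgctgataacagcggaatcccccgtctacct
HES4 promoter, chr1:1000048-1000347, minus strand: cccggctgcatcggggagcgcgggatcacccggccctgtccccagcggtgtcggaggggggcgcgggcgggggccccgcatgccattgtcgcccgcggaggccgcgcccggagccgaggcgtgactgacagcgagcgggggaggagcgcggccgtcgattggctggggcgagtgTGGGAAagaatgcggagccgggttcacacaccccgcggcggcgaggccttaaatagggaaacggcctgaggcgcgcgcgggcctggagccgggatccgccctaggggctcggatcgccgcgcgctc
JAG1 promoter, chr20:10673950-10674249, minus strand: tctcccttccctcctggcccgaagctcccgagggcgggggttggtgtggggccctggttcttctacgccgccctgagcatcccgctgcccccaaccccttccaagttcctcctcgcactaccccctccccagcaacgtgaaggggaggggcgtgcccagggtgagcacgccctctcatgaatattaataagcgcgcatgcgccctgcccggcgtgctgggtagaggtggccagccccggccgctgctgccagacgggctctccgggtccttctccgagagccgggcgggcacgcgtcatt
The HES1 window held 2 TGGGAA matches, starting 84 and 70 bases before the start site, and the HES4 window held 1, starting 76 bases before it. The JAG1 window, like those of NOTCH1, NOTCH2, NOTCH3 and JAG2, held none. TGGGAA was present in 24.0% of the 35116 promoter windows of the table. The SMAD-type letters CAGACA were in none of the 3 windows shown and in 16.9% of all windows. The N-box letters CACNAG, to which HES proteins bind, matched 4 times in the HES1 window and were in 38.0% of all windows. RBPJ had 5 start sites in the table; 1 of its windows held 2 TGGGAA matches.

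Levels are given in the usual CPM unit of count data, each gene's reads relative to all reads assigned to genes, scaled over the 20 libraries by the trimmed mean of M-values. The libraries held 11152625 to 15571367 gene counts in Panc1 and 6846761 to 19070551 in A549, so 3 counts, the limit that a count of 0 allows, correspond to 0.157 to 0.438 CPM; such limits cover counting error only. The share of reads outside annotated genes was 33.6 to 36.9% in Panc1 and 57.6 to 60.1% in A549, and its part in differences between the lines was not tested. KLF10 itself was lowered by the siRNA in Panc1, to 77.1 to 82.9 CPM in siKLF10 against 130 to 140 CPM in siCont (log2 fold change −0.76 ± 0.06, SE). In A549 it was 103 and 108 CPM in the libraries labelled siKLF10 against 113 and 109 CPM in siCont (−0.05 ± 0.08, adjusted p = 0.743), and with TGFβ it was 147 and 143 CPM in siKLF10+TGFb against 175 and 174 CPM in TGFb (−0.29 ± 0.08, adjusted p = 0.0078, and 0.062 or 0.057 without TGFb A or B). A549 results on siKLF10 therefore refer to libraries labelled siKLF10. SMAD7, a SMAD target and feedback inhibitor, rose with TGFβ in both lines, by 1.22 ± 0.11 (log2) in Panc1 and 1.53 ± 0.09 in A549. All 6 epithelial keratin and adhesion markers were above 3 counts in every library. The 5 alveolar type 2 markers summed to at most 2.50 CPM in A549, so the defining markers of that lung cell type were at or near 0. Of the 3 pancreatic duct markers, 1 was above 3 counts in every Panc1 library. In each A549 group 2 of the 3 were above 3 counts in all libraries. The 4 haematopoietic markers summed to at most 2.41 CPM in Panc1 and 5.47 CPM in A549. In these bulk libraries fewer cells expressing a gene and less RNA per cell cannot be told apart.

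**Figure D1:**
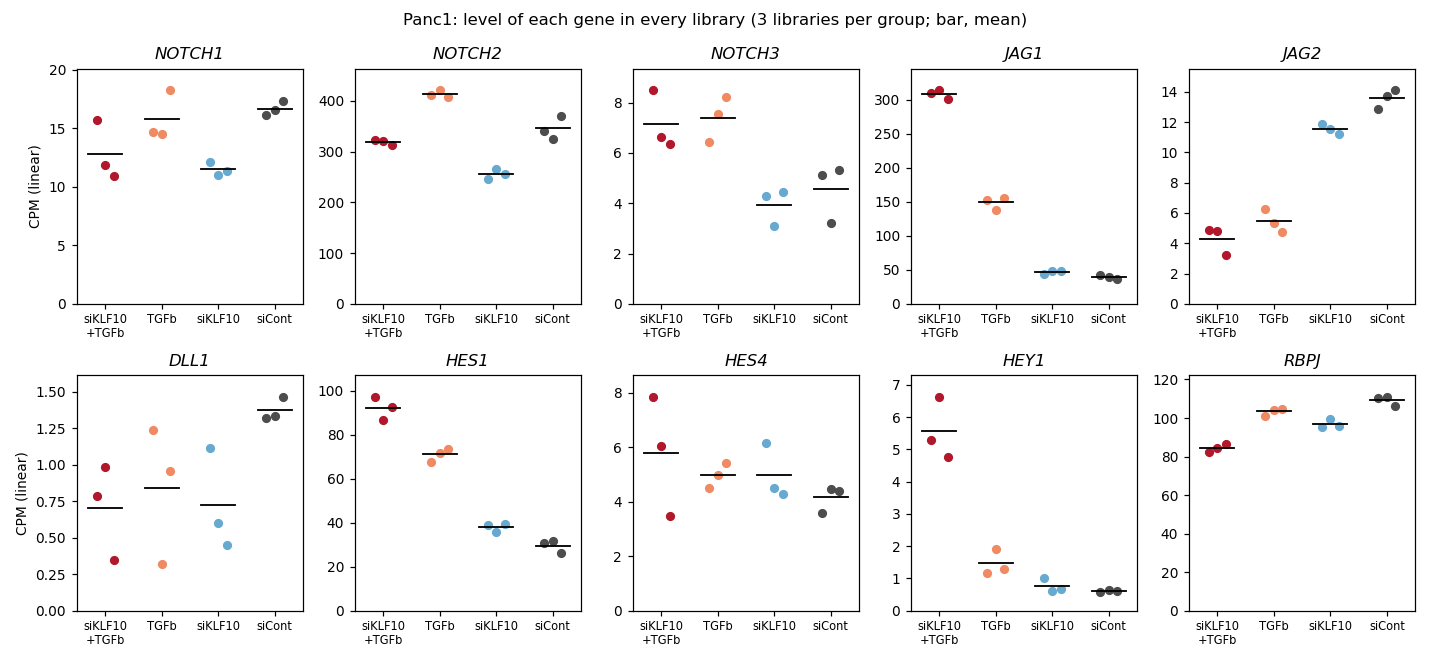
Level of the 10 genes in each Panc1 library, in CPM on a linear axis from 0, with siKLF10+TGFb, TGFb, siKLF10 and siCont from left to right; points are libraries (3 per group) and bars are means. JAG1 stood at 301 to 315 CPM in siKLF10+TGFb and at 36.8 to 43.1 CPM in siCont, and JAG2 showed the opposite order.

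**Figure D2:**
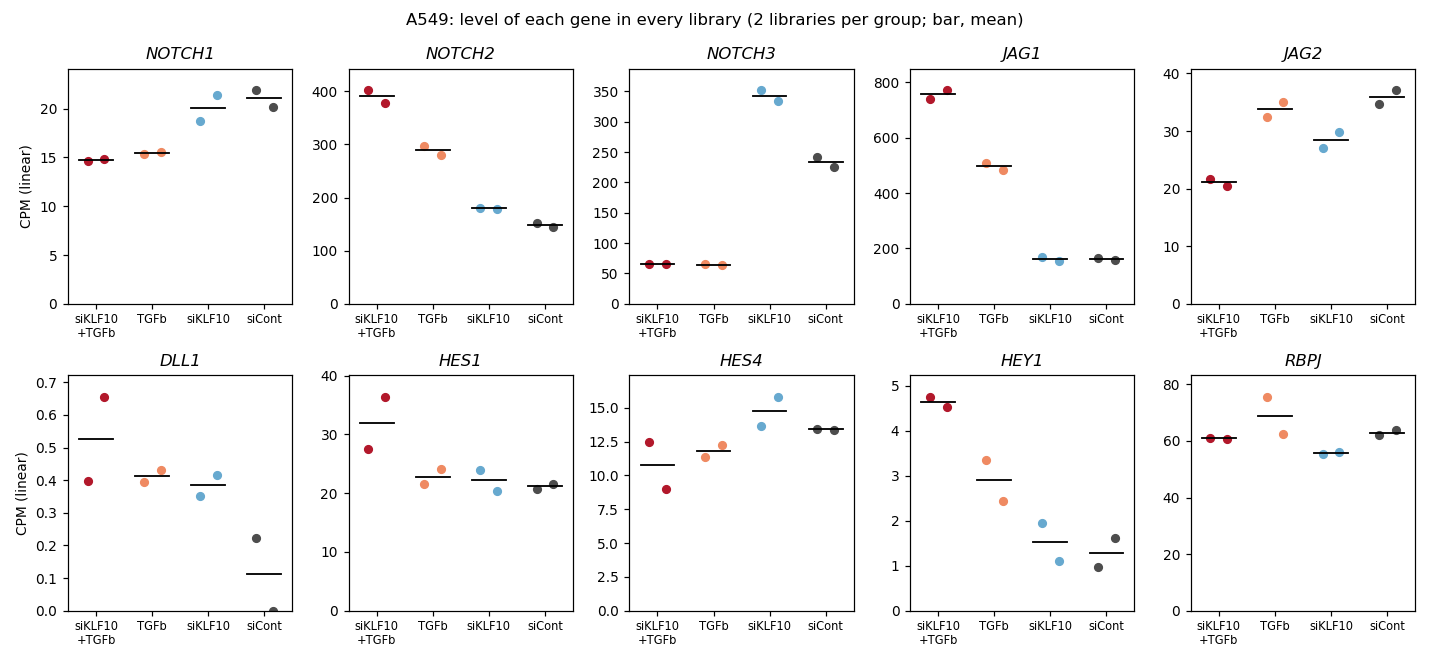
Level of the 10 genes in each A549 library, drawn as for Panc1, with 2 libraries per group. NOTCH3 stood at 65.8 and 66.4 CPM in siKLF10+TGFb and at 242 and 225 CPM in siCont, whereas JAG1 was highest in siKLF10+TGFb.

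The receptors stood in a different order in siCont Panc1 and siCont A549, whereas the order of JAG1, JAG2 and DLL1 was the same. Among the receptors, NOTCH2 was the most abundant in Panc1 siCont per exon length, at 21.5 ± 1.4 CPM per kilobase (SD, n = 3), followed by NOTCH1 at 1.79 ± 0.06 and NOTCH3 at 0.526 ± 0.135. In A549 siCont the order was NOTCH3 at 26.9 ± 1.4 CPM per kilobase (SD, n = 2), NOTCH2 at 9.26 ± 0.34 and NOTCH1 at 2.26 ± 0.13. These neighbours did not overlap in either line. Of the 3 ligands JAG1, JAG2 and DLL1, JAG1 was the most abundant in both lines, at 6.68 ± 0.53 CPM per kilobase in Panc1 siCont and 27.0 ± 0.9 in A549 siCont, ahead of JAG2 at 2.33 ± 0.11 and 6.16 ± 0.30; DLL1 was lowest, at 0.433 ± 0.025 and 0.035 ± 0.050. DLL3, a ligand gene outside the 10, had 50.6 to 67.2 CPM in Panc1 siCont and 7.73 to 8.16 CPM in A549 siCont, levels not set per length and so not ranked with these.

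The 10 genes passed between siCont Panc1 and siCont A549 in the quasi-likelihood test of edgeR, adjusted over all genes by Benjamini-Hochberg (the test behind each adjusted p below), where 81.9% of the 15058 genes tested also passed. NOTCH3 was 50.6-fold lower in Panc1, at 5.14, 3.22 and 5.33 CPM against 242 and 225 CPM in A549 (adjusted p = 3.5e-29). JAG1 was 4.05-fold lower in Panc1, HES4 3.22-fold lower and JAG2 2.64-fold lower. NOTCH2 was 2.32-fold higher in Panc1, RBPJ 1.74-fold higher and HES1 1.40-fold higher. DLL1 had 18, 17 and 22 counts in the Panc1 siCont libraries and 3 and 0 counts in the A549 siCont libraries, which are too few for a fold change. DLL1 was above the cutoff of the count filter in 3 of 3 Panc1 and 0 of 2 A549 siCont libraries, and HEY1 in 0 of 3 and 2 of 2, so both entered this comparison through the higher line and their calls support nothing. NOTCH1 was 1.26-fold lower in Panc1 (adjusted p = 0.013), a call lost without A549 siCont A (0.13). Leaving out 1 of the 2 libraries of an A549 group leaves 1, which is then assumed to vary like the other groups; this holds for every A549 value given without a library. HEY1 was 2.07-fold lower in Panc1, and without A549 siCont B the log2 difference was −0.66 in place of −1.05.

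With TGFβ, JAG1 levels were higher in both lines and HEY1 levels likewise, though HEY1 was scarce. TGFβ raised HES1 in Panc1, lowered JAG2 in Panc1, and moved NOTCH3 in opposite directions in the lines. In Panc1, 6 of the 10 genes passed in TGFb against siCont, 5 higher and 1 lower, where 29.0% of all genes passed. In siKLF10+TGFb against siKLF10, 7 passed, 5 higher and 2 lower, where 45.0% of all genes passed. In A549 DLL1 stayed below the count filter and 9 genes were tested; 5 passed in TGFb against siCont, 3 higher and 2 lower, where 47.7% of all genes passed. In siKLF10+TGFb against the libraries labelled siKLF10, 8 of the 9 passed, 4 higher and 4 lower, where 53.3% of all genes passed. HEY1 passed the Panc1 count filter through the groups given TGFβ, since 0 of the 3 siCont and 1 of the 3 siKLF10 libraries were above its cutoff, so its Panc1 calls with TGFβ support nothing; leaving it out, 5 of 9 genes passed in TGFb against siCont. The 7 genes that passed in siKLF10+TGFb against siKLF10 also include HEY1. DLL1 passed the filter mainly through siCont. The median log2 fold change of TGFb against siCont was 0.25 over the 10 genes in Panc1 and 0.17 over the 9 in A549, beside −0.005 and −0.01 over all genes.

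**Figure D3:**
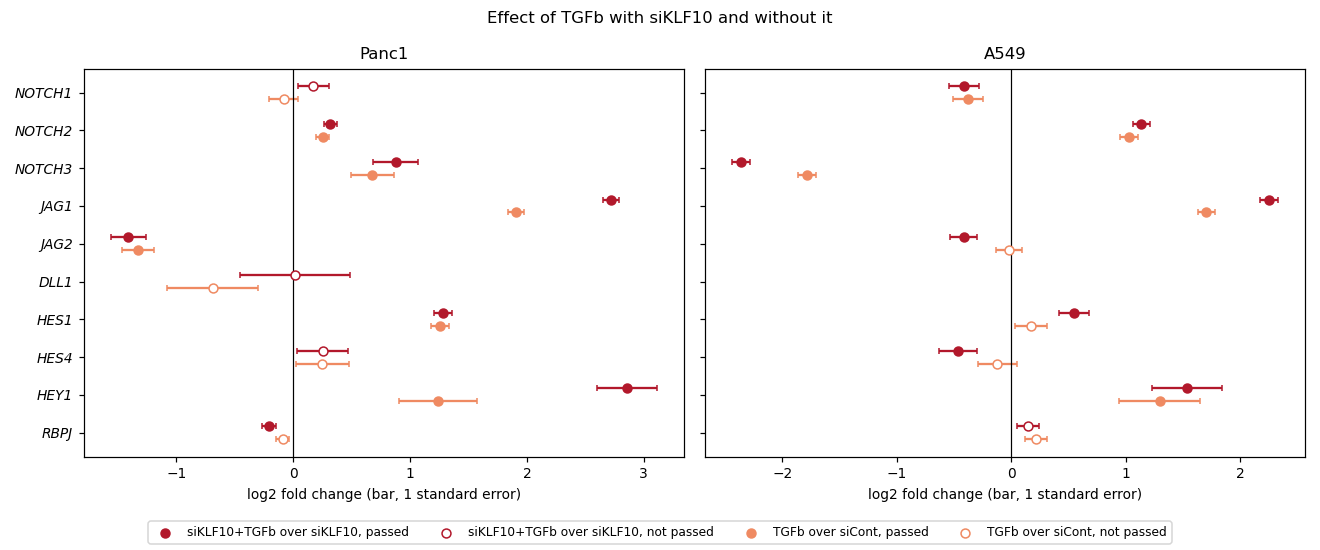
Log2 fold change with TGFβ for each gene, after siKLF10 (dark red, siKLF10+TGFb over siKLF10) and without it (orange, TGFb over siCont), in Panc1 and A549; bars are 1 standard error and filled points passed at an adjusted p below 0.05. JAG1 and HEY1 lie to the right in both lines, and NOTCH3 lies right of 0 in Panc1 and left of 0 in A549, where DLL1 was not tested.

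Of the receptors, NOTCH3 responded most and in opposite directions. In Panc1, where it was scarce, NOTCH3 had 6.42, 7.53 and 8.22 CPM in TGFb and 5.14, 3.22 and 5.33 CPM in siCont, a rise of 0.68 ± 0.18 (log2, adjusted p = 0.0073). The Panc1 groups did not overlap, but without siCont B, the lowest library, the difference was 0.49 and the call was lost (adjusted p = 0.056). In A549, where it was the leading receptor, NOTCH3 had 65.4 and 63.4 CPM in TGFb and 242 and 225 CPM in siCont, a 3.45-fold fall (log2 −1.78 ± 0.08, adjusted p = 4.5e-14). The authors' deposited table for A549 TGFβ gives NOTCH3 a log2 fold change of 2.84, the opposite sign to the deposited counts. The authors' deposited table has the opposite sign to the counts for 7 of the 9 genes tested: NOTCH3, HEY1 (−2.02), HES4 (0.89), JAG2 (0.53), NOTCH1 (0.24), RBPJ (−0.08) and HES1 (−0.02). The authors' deposited table has the same sign for JAG1 (2.32) and NOTCH2 (0.39), gives DLL1, too low to test here, −0.46, and is opposite for KLF10 (−0.21) and SMAD7 (−0.46). The cause was not tested.

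NOTCH2 rose with TGFβ in both lines. It had 413, 422 and 407 CPM in Panc1 TGFb against 341, 326 and 371 CPM in siCont (log2 0.25 ± 0.06, adjusted p = 0.0017), and 297 and 281 CPM in A549 TGFb against 153 and 145 CPM in siCont (1.03 ± 0.08, adjusted p = 2.4e-10). All TGFβ libraries lay above all siCont libraries in each line, and the rise was larger in A549 (Panc1 minus A549, −0.70 ± 0.10, adjusted p = 7.2e-07). NOTCH2 shares near-identical sequence with NOTCH2NL, whose counts were 1.50 to 5.65% of those of NOTCH2, so a split of reads between them is uncertain. NOTCH1 had 14.7, 14.5 and 18.3 CPM in Panc1 TGFb and 16.1, 16.6 and 17.3 CPM in siCont, groups that overlapped. In A549 it had 15.4 and 15.5 CPM in TGFb and 21.9 and 20.2 CPM in siCont (−0.38 ± 0.13, adjusted p = 0.022). This call was lost with DESeq2 (adjusted p = 0.12). It was also lost without siCont A (log2 −0.31), TGFb A (−0.36) or TGFb B (−0.39).

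Of the ligands, JAG1 rose most. JAG1 had 153, 139 and 156 CPM in Panc1 TGFb against 43.1, 39.2 and 36.8 CPM in siCont, a 3.74-fold rise (log2 1.90 ± 0.07, adjusted p = 2.1e-15). A549 cells had 510 and 483 CPM in TGFb against 164 and 157 CPM in siCont, a 3.25-fold rise (1.70 ± 0.08, adjusted p = 3.0e-14). The treated libraries were thus far above the control libraries in both lines.

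JAG2, the other Jagged ligand, fell in Panc1, with 6.27, 5.37 and 4.73 CPM in TGFb and 12.8, 13.7 and 14.1 CPM in siCont (−1.32 ± 0.14, adjusted p = 7.0e-08). In A549 it had 32.4 and 35.1 CPM in TGFb and 34.7 and 37.1 CPM in siCont, which overlapped. The responses of JAG2 differed between the lines by −1.22 ± 0.17 (Panc1 minus A549, adjusted p = 1.0e-06). DLL1 had 1.24, 0.32 and 0.959 CPM in Panc1 TGFb and 1.32, 1.34 and 1.47 CPM in siCont (adjusted p = 0.20), and 4 and 3 counts in A549 TGFb against 3 and 0 in siCont.

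Of the nuclear genes, RBPJ did not pass in TGFb against siCont in either line. It had 101, 104 and 105 CPM in Panc1 TGFb and 110, 111 and 106 CPM in siCont (adjusted p = 0.27), and 75.6 and 62.3 CPM in A549 TGFb and 62.0 and 63.7 CPM in siCont (adjusted p = 0.071). In A549 the RBPJ value passed without TGFb B (0.022), or without siKLF10+TGFb A or B (0.019 each). RBPJ has processed pseudogenes of high similarity, so the assignment of its reads is uncertain.

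HES1 rose in Panc1, with 67.6, 71.7 and 73.7 CPM in TGFb and 30.9, 31.7 and 26.2 CPM in siCont, a 2.39-fold rise (log2 1.26 ± 0.08, adjusted p = 2.3e-11). In A549 the groups met, with 21.6 and 24.0 CPM in TGFb and 20.7 and 21.6 CPM in siCont (0.17 ± 0.14, adjusted p = 0.32). The difference between the lines' responses was 1.17 ± 0.16 (Panc1 minus A549, adjusted p = 5.5e-07). HES4 did not pass in TGFb against siCont in either line. HES4 had 4.52, 4.97 and 5.41 CPM in Panc1 TGFb and 3.60, 4.48 and 4.40 CPM in siCont (adjusted p = 0.45), and 11.3 and 12.2 CPM in A549 TGFb and 13.4 CPM in both siCont libraries (adjusted p = 0.59). The HES1 and HES4 responses were not tested against each other.

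HEY1 was scarce in both lines. HEY1 had 1.17, 1.92 and 1.30 CPM in Panc1 TGFb and 0.587, 0.628 and 0.60 CPM in siCont (log2 difference 1.24 ± 0.33), groups that did not overlap. Since the filter let HEY1 in through the groups given TGFβ, no p is given for this fit; with no filter the log2 difference was 1.25 (adjusted p = 0.0044). In A549, where every group was above the cutoff, HEY1 rose, with 3.35 and 2.45 CPM in TGFb and 0.966 and 1.61 CPM in siCont (1.29 ± 0.35, adjusted p = 0.0045), which no longer passed without siCont A (0.077) or TGFb A (0.12). These levels rest on 16 to 24 counts in the Panc1 TGFb libraries and 8 or 9 counts in the Panc1 siCont libraries.

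The TGFβ responses of 5 of the 10 genes differed between the lines, where 31.0% of all genes passed. Besides NOTCH2, JAG2 and HES1 these were NOTCH3, with the largest difference (2.54 ± 0.19, adjusted p = 6.1e-13), and JAG1 (0.28 ± 0.11, adjusted p = 0.041). The JAG1 difference was lost under 4 of 5 other fits (adjusted p = 0.052 to 0.34) and without any 1 of 9 libraries, among them A549 siCont A (0.16) and A549 TGFb B (0.15). Without A549 TGFb B the RBPJ difference passed (−0.35, adjusted p = 0.024).

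Markers of other cell states moved with TGFβ in the same libraries. In Panc1 the 5 fibroblast markers summed to 28.1 to 31.7 CPM in TGFb against 12.2 to 13.7 CPM in siCont, and the 6 epithelial markers to 440 to 466 CPM against 855 to 996 CPM. The 5 basal squamous markers summed to 8.22 to 15.2 CPM in Panc1 TGFb against 26.7 to 72.3 CPM in siCont, led by KRT5 at 60.5 CPM in siCont A. Without siCont A the Panc1 changes were 1.97 for JAG1, 1.29 for HES1, 1.22 for HEY1, 0.76 for NOTCH3, 0.24 for NOTCH2 and 0.16 for HES4 (log2). They were −1.36 for JAG2, −0.72 for DLL1, −0.10 for NOTCH1 and −0.08 for RBPJ. Each siCont library held at least 26.7 CPM of basal squamous markers, above every TGFb library, so this fit did not remove that difference. In A549 the fibroblast markers summed to 8.20 to 11.0 CPM in TGFb against 1.26 to 1.34 CPM in siCont, and the epithelial markers to 5631 to 5676 CPM against 6933 to 7105 CPM. The basal squamous markers summed to 14.0 to 14.7 CPM in A549 TGFb against 2.38 to 2.96 CPM in siCont (2 of 3 tested passed, both higher). The pancreatic duct markers summed to 206 to 207 CPM in A549 TGFb against 99.8 to 105 CPM in siCont (2 of 2 tested passed, both higher). Endothelial markers, of cells rich in Notch transcripts, summed to at most 0.874 CPM in any library and none exceeded 3 counts throughout a group. The part of the epithelial, fibroblast, basal and duct genes in the Notch results was not tested.

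With siKLF10, JAG1 and HEY1 were higher in TGFβ-treated Panc1 cells, HES1 was higher with and without TGFβ, and NOTCH2 was lower. In Panc1, 5 of the 10 genes passed in siKLF10 against siCont, 2 higher and 3 lower, where 35.6% of all genes passed. In siKLF10+TGFb against TGFb, 5 passed, 3 higher and 2 lower, where 41.7% of all genes passed. The labels name no siRNA for the TGFb libraries of that comparison in either line. In A549, 2 of the 9 tested genes passed in the libraries labelled siKLF10 against siCont, both higher, where 19.5% of all genes passed. With TGFβ, 4 of 9 passed, 3 higher and 1 lower, where 28.3% of all genes passed. Markers of other states moved with siKLF10 as well. The epithelial markers summed to 706 to 829 CPM in Panc1 siKLF10+TGFb against 440 to 466 CPM in TGFb. Of these 6 markers 4 passed there, 2 higher and 2 lower, so they did not rise together. The basal squamous markers summed to 8.07 to 8.96 CPM in Panc1 siKLF10 against 26.7 to 72.3 CPM in siCont. In A549 the basal squamous markers summed to 32.2 to 33.3 CPM in siKLF10+TGFb against 14.0 to 14.7 CPM in TGFb. Their part in the siKLF10 results was not tested.

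**Figure D4:**
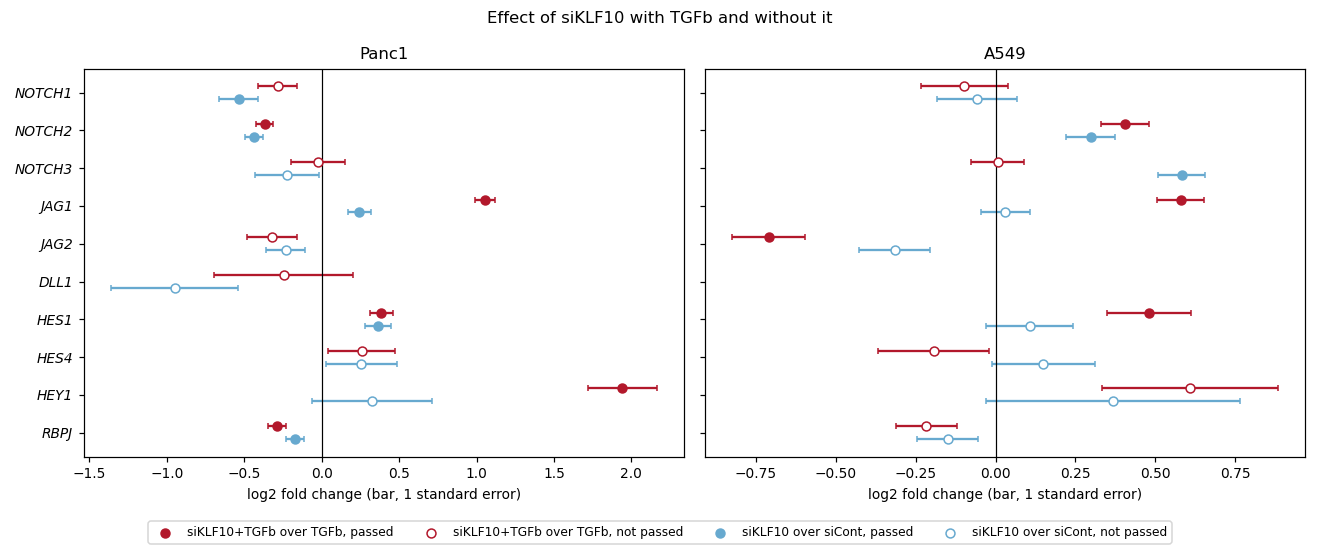
Log2 fold change with siKLF10 for each gene, in the presence of TGFβ (dark red, siKLF10+TGFb over TGFb) and without it (blue, siKLF10 over siCont), in Panc1 and A549; bars are 1 standard error, filled points passed at an adjusted p below 0.05, and the axes of the panels differ. NOTCH2 lies left of 0 in Panc1 and right of 0 in A549, and JAG1 and HEY1 lie furthest right in the presence of TGFβ in both lines, though the A549 HEY1 value did not pass.

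Among the receptors, NOTCH2 fell with siKLF10 in Panc1 and was higher in the A549 libraries labelled siKLF10. In Panc1 it had 246, 265 and 256 CPM in siKLF10 against 341, 326 and 371 CPM in siCont (−0.44 ± 0.06, adjusted p = 4.5e-06), and 322, 321 and 313 CPM in siKLF10+TGFb against 413, 422 and 407 CPM in TGFb (−0.37 ± 0.06, adjusted p = 2.5e-05). In A549 it had 181 and 179 CPM in siKLF10 against 153 and 145 CPM in siCont (0.30 ± 0.08, adjusted p = 0.0092), and 402 and 378 CPM in siKLF10+TGFb against 297 and 281 CPM in TGFb (0.41 ± 0.08, adjusted p = 3.4e-04). No pair of groups overlapped. The first A549 call was lost without siCont B (0.13), siKLF10 A (0.068) or siKLF10 B (0.053). The effects differed between the lines by −0.71 ± 0.10 without TGFβ and −0.81 ± 0.10 with it (adjusted p = 3.6e-06 and 1.6e-07).

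NOTCH1 fell in Panc1 siKLF10, with 12.1, 11.0 and 11.4 CPM against 16.1, 16.6 and 17.3 CPM in siCont (−0.54 ± 0.13, adjusted p = 0.0022). With TGFβ it had 15.7, 11.9 and 10.9 CPM in siKLF10+TGFb and 14.7, 14.5 and 18.3 CPM in TGFb (−0.28 ± 0.13, adjusted p = 0.077). The highest library, siKLF10+TGFb A, decided this value, which was −0.47 and passed without it (adjusted p = 0.0036); it also passed without the count filter (0.049). NOTCH3 was higher in the A549 libraries labelled siKLF10, at 352 and 334 CPM against 242 and 225 CPM in siCont (0.58 ± 0.07, adjusted p = 9.1e-06), whereas with TGFβ it had 65.8 and 66.4 CPM in siKLF10+TGFb and 65.4 and 63.4 CPM in TGFb (0.01 ± 0.08, adjusted p = 0.97). In Panc1 it had 4.28, 3.09 and 4.45 CPM in siKLF10, beside 5.14, 3.22 and 5.33 CPM in siCont, and the siKLF10 effect without TGFβ differed between the lines by −0.78 ± 0.20 (adjusted p = 0.0061).

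Among the ligands, JAG1 rose with siKLF10 in Panc1 cells given TGFβ. It had 311, 315 and 301 CPM in siKLF10+TGFb against 153, 139 and 156 CPM in TGFb, a 2.08-fold rise (log2 1.06 ± 0.06, adjusted p = 3.1e-11). Without TGFβ it had 44.6, 48.4 and 47.7 CPM in siKLF10 against 43.1, 39.2 and 36.8 CPM in siCont (0.24 ± 0.07, adjusted p = 0.012, and 0.068 without siCont C). A549 cells had 741 and 772 CPM in siKLF10+TGFb against 510 and 483 CPM in TGFb (0.58 ± 0.07, adjusted p = 3.8e-06), and without TGFβ it stood at 168 and 153 CPM in siKLF10, beside 164 and 157 CPM in siCont (0.03 ± 0.08, adjusted p = 0.83). JAG1 was thus highest in siKLF10+TGFb in every library of both lines.

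JAG2 fell in A549 in the presence of TGFβ, with 21.6 and 20.5 CPM in siKLF10+TGFb against 32.4 and 35.1 CPM in TGFb (−0.71 ± 0.11, adjusted p = 7.7e-05). Without TGFβ its levels were 27.1 and 29.8 CPM in siKLF10, beside 34.7 and 37.1 CPM in siCont (−0.32 ± 0.11, adjusted p = 0.051), a value that passed without siKLF10+TGFb A or B (0.011 and 0.010), with library totals (0.049) and without the count filter (0.041). In Panc1 it had 4.84, 4.83 and 3.21 CPM in siKLF10+TGFb and 6.27, 5.37 and 4.73 CPM in TGFb, which overlapped. DLL1 had 1.11, 0.603 and 0.452 CPM in Panc1 siKLF10 and 1.32, 1.34 and 1.47 CPM in siCont (−0.95 ± 0.41, adjusted p = 0.076, and 0.061 with no filter). It was above the cutoff of the count filter in 3 of 3 siCont and 1 of 3 siKLF10 libraries. DLL1 thus entered this comparison mainly through siCont, and its pass without siKLF10 A (−1.37, adjusted p = 0.030) supports nothing.

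RBPJ fell in Panc1 siKLF10+TGFb, with 82.2, 84.4 and 86.3 CPM against 101, 104 and 105 CPM in TGFb (−0.29 ± 0.06, adjusted p = 3.8e-04). Without TGFβ it had 95.5, 99.5 and 96.0 CPM in siKLF10 against 110, 111 and 106 CPM in siCont (−0.17 ± 0.06, adjusted p = 0.023), a call lost with library totals (0.17), without the count filter (0.052) and without siCont A (0.059), siCont B (0.077), siKLF10 A (0.069) or siKLF10 C (0.087). In A549 the RBPJ values did not pass; with TGFβ they were 61.0 and 60.7 CPM in siKLF10+TGFb and 75.6 and 62.3 CPM in TGFb (−0.22 ± 0.09, adjusted p = 0.094, and 0.043 or 0.038 without TGFb B or siKLF10+TGFb A).

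Of the targets, HES1 rose by similar amounts with siKLF10 in Panc1 without and with TGFβ. It had 38.7, 35.8 and 39.2 CPM in siKLF10 against 30.9, 31.7 and 26.2 CPM in siCont (0.36 ± 0.08, adjusted p = 0.0017), and 97.2, 86.8 and 92.4 CPM in siKLF10+TGFb against 67.6, 71.7 and 73.7 CPM in TGFb (0.38 ± 0.07, adjusted p = 2.6e-04). In A549 with TGFβ it had 27.4 and 36.4 CPM in siKLF10+TGFb against 21.6 and 24.0 CPM in TGFb (0.48 ± 0.13, adjusted p = 0.0090). That call was lost without TGFb A or without siKLF10+TGFb B, the highest library (adjusted p = 0.15 each), and without siKLF10+TGFb B the value was 0.27.

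HEY1 rose 3.84-fold in Panc1 siKLF10+TGFb against TGFb, with 5.30, 6.63 and 4.77 CPM against 1.17, 1.92 and 1.30 CPM (log2 1.94 ± 0.22, adjusted p = 5.2e-07). Without TGFβ it had 1.03, 0.603 and 0.679 CPM in siKLF10, beside 0.587, 0.628 and 0.60 CPM in siCont, which overlapped. A549 cells had 4.76 and 4.53 CPM in siKLF10+TGFb and 3.35 and 2.45 CPM in TGFb (0.61 ± 0.28, adjusted p = 0.11). HES4 passed in none of the siKLF10 comparisons; in Panc1 its siKLF10+TGFb libraries spread from 7.85 CPM (A) to 3.47 CPM (C) around TGFb values of 4.52 to 5.41 CPM, and without A or C the log2 difference was −0.05 or 0.50 (adjusted p = 0.88 and 0.037). In A549 it was 12.5 and 9.01 CPM in siKLF10+TGFb and 11.3 and 12.2 CPM in TGFb, and without A or B of siKLF10+TGFb the difference was −0.42 or 0.09 (adjusted p = 0.047 and 0.79).

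The other values of the 10 genes did not pass. Without TGFβ in A549 they were −0.06 for NOTCH1, 0.11 for HES1, 0.15 for HES4, 0.37 for HEY1 and −0.15 for RBPJ (log2, adjusted p at least 0.30), and with TGFβ −0.10 for NOTCH1. In Panc1 JAG2 was −0.23 without TGFβ, and with TGFβ NOTCH3 was −0.03 and DLL1 −0.25.

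The siKLF10 effect differed between the lines for 2 of the 10 genes without TGFβ (NOTCH2 and NOTCH3), where 17.2% of all genes passed, and for 3 with TGFβ, where 19.8% of all genes passed. The 3 genes were NOTCH2 (above), JAG1 (0.44 ± 0.10 larger in Panc1, adjusted p = 0.0018) and HEY1 (1.29 ± 0.37 larger, adjusted p = 0.012). The HEY1 difference was lost without A549 TGFb A (1.01, adjusted p = 0.19). The JAG1 difference without TGFβ (0.24 ± 0.11, adjusted p = 0.14) passed with library totals (0.045). In A549 these contrasts compare libraries in which KLF10 was hardly lowered.

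The TGFβ response after siKLF10 was computed from the same levels. In Panc1 it was 2.72 ± 0.07 for JAG1, 2.86 ± 0.26 for HEY1, 1.28 ± 0.08 for HES1, 0.88 ± 0.19 for NOTCH3, 0.32 ± 0.06 for NOTCH2, −0.21 ± 0.06 for RBPJ and −1.41 ± 0.15 for JAG2 (log2, siKLF10+TGFb over siKLF10, adjusted p at most 0.0059 for the 6 genes other than HEY1). In A549 it was 2.25 ± 0.08 for JAG1, 1.53 ± 0.31 for HEY1, 1.14 ± 0.08 for NOTCH2 and 0.54 ± 0.13 for HES1, and −2.36 ± 0.08 for NOTCH3, −0.42 ± 0.13 for NOTCH1, −0.42 ± 0.12 for JAG2 and −0.46 ± 0.17 for HES4 (adjusted p at most 0.022). The last 3 were lost without siKLF10 B (adjusted p = 0.096 for NOTCH1, 0.051 for JAG2 and 0.15 for HES4). HES4 was also lost without siKLF10+TGFb B (−0.18, adjusted p = 0.43) and with DESeq2 (0.11), as was NOTCH1 (0.061). In Panc1 HES4 (0.25) changed to 0.50 and passed without siKLF10+TGFb C (0.037), and to −0.05 without siKLF10+TGFb A.

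Whether the TGFβ response differed in size with siKLF10 was tested by the interaction. Since the labels name no siRNA for the TGFb libraries, an effect of siKLF10 cannot be told apart here from one of receiving an siRNA. In Panc1 JAG1 and HEY1 passed, both higher, where 4.42% of all genes passed. The JAG1 response was 0.81 ± 0.10 larger after siKLF10 (log2, adjusted p = 2.7e-05). HEY1, let in by the filter as above, had an interaction of 1.61 ± 0.46 (adjusted p = 0.049, and 0.041 with no filter), and this call was lost without any 1 of 9 of the 12 libraries (adjusted p = 0.050 to 0.12), with DESeq2 (0.060) and with library totals (0.056), while its value remained between 1.46 and 1.70 in those fits. HES1 had an interaction of 0.02 ± 0.11 (adjusted p = 0.94). In A549 JAG1 and NOTCH3 passed, where 6.49% of all genes passed. The A549 JAG1 response was 0.55 ± 0.11 larger in the libraries labelled siKLF10 (adjusted p = 0.0025), and the NOTCH3 fall was 0.58 larger (−0.58 ± 0.11, adjusted p = 0.0027). Without A549 siKLF10+TGFb A, HES1 (0.53, adjusted p = 0.017) and JAG2 (−0.44, adjusted p = 0.041) also passed.

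Another 54 genes of the pathway, in 6 lists by function, were read in the same fits. In Panc1 11 of the 45 tested passed in TGFb against siCont, 6 higher and 5 lower, where 29.0% of all genes passed. In A549 28 of 47 passed, 23 higher and 5 lower, where 47.7% of all genes passed. The counts per list that follow are to be read against the same shares. Of the 45 genes tested in both lines, 8 passed in both. The share of all genes that passed in both lines was not computed, so no shared response is read from this count.

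**Figure D5:**
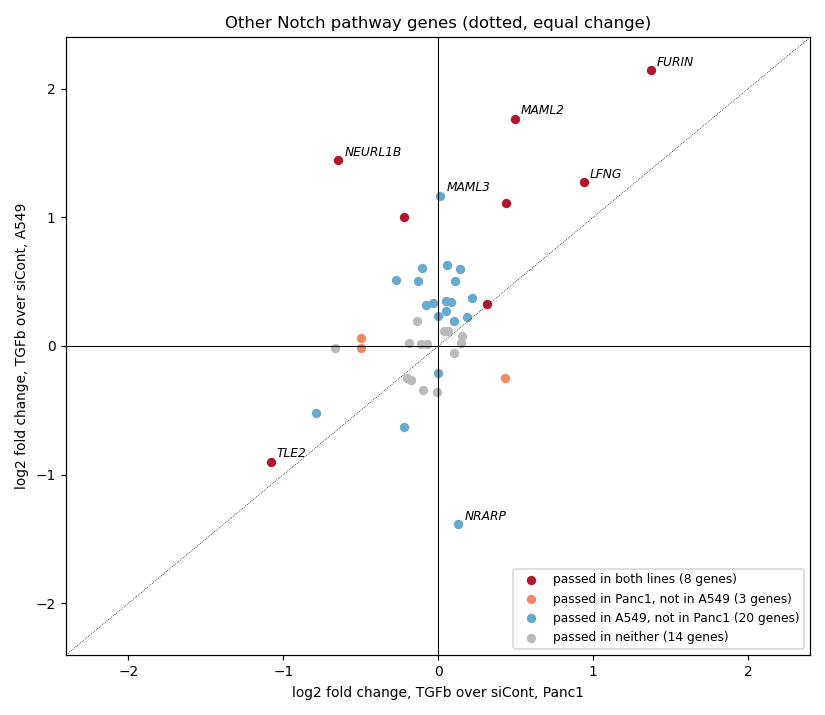
Log2 fold change with TGFβ (TGFb over siCont) of the 45 other pathway genes tested in both lines, Panc1 across and A549 up; colours show in which lines a gene passed at an adjusted p below 0.05, and the dotted line marks equal change. FURIN and LFNG lie at the upper right, TLE2 at the lower left, and NEURL1B at the upper left.

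Among the 9 cleavage genes, FURIN, the convertase that cuts Notch precursors, rose in both lines, to 98.7, 108 and 103 CPM in Panc1 TGFb against 37.6, 39.6 and 41.8 CPM in siCont (1.37 ± 0.09) and to 404 and 425 CPM in A549 TGFb against 102 and 95.1 CPM in siCont (2.14 ± 0.08). In all, 1 of 9 passed in Panc1 and 6 of 9 in A549, all higher. PSEN2, a catalytic subunit of γ-secretase, fell with siKLF10 in every comparison. It had 5.37, 4.42 and 4.34 CPM in Panc1 siKLF10+TGFb against 13.1, 13.5 and 11.2 CPM in TGFb (−1.40 ± 0.14), and 8.98, 6.78 and 9.20 CPM in siKLF10 against 14.4, 14.2 and 14.2 CPM in siCont (−0.78 ± 0.13). In the A549 libraries labelled siKLF10 it had 19.9 CPM in both siKLF10+TGFb libraries against 30.2 and 32.9 CPM in TGFb (−0.69 ± 0.11), and 21.2 and 22.6 CPM against 33.6 and 31.4 CPM in siCont (−0.55 ± 0.11, adjusted p = 0.0017, and 0.052 without siKLF10 A). No pair of PSEN2 groups overlapped.

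Among the 13 nuclear cofactors, 4 of 12 tested passed with TGFβ in Panc1, 3 higher and 1 lower, and 10 of 12 in A549, 8 higher and 2 lower. MAML2, a Mastermind coactivator, had 56.6, 59.0 and 51.6 CPM in Panc1 TGFb against 39.3, 36.0 and 42.3 CPM in siCont (0.50 ± 0.08) and 22.3 and 20.1 CPM in A549 TGFb against 6.76 and 6.37 CPM in siCont (1.77 ± 0.15). In Panc1 its TGFβ response was 0.58 ± 0.11 larger after siKLF10 (adjusted p = 0.0024). The corepressor TLE2 fell by 1.08 in Panc1 and 0.90 in A549 (log2). MAML3 rose in A549 (1.17 ± 0.09).

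Among the 8 further HES, HEY and feedback genes, 2 of 5 passed with TGFβ in Panc1 (HES2 lower and HEYL higher, calls lost without siCont C or TGFb A for HES2, 0.072 and 0.073, and without any 1 of 5 libraries for HEYL, 0.051 to 0.16) and 1 of 6 in A549. That gene was NRARP, a feedback inhibitor that is itself a Notch target. NRARP had 4.83 and 3.31 CPM in A549 TGFb against 12.9 and 9.96 CPM in siCont (−1.39 ± 0.21, adjusted p = 9.9e-06). In Panc1 it had 25.5, 23.1 and 20.5 CPM in siKLF10+TGFb, 14.8, 12.9 and 16.4 CPM in TGFb, 10.2, 8.59 and 9.42 CPM in siKLF10, beside 16.4, 12.5 and 11.3 CPM in siCont, so it was highest in siKLF10+TGFb, as JAG1, HES1 and HEY1 were. Its Panc1 interaction was 1.17 ± 0.19 (adjusted p = 7.1e-04), and its TGFβ response differed between the lines by 1.60 ± 0.26 (adjusted p = 1.1e-05). HEYL, a HEY family member, rose with siKLF10 in Panc1 by 0.93 ± 0.15 without TGFβ and 1.01 ± 0.14 with it.

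Of the 6 glycosyltransferases, 1 of 5 passed with TGFβ in Panc1 and 4 of 6 in A549, all higher. LFNG, a Fringe enzyme that modifies Notch receptors, had 8.32, 9.13 and 9.45 CPM in Panc1 TGFb against 3.45, 4.08 and 6.26 CPM in siCont (0.94 ± 0.20) and 39.6 and 41.9 CPM in A549 TGFb against 17.7 CPM in both siCont libraries (1.27 ± 0.12). Of the 13 ubiquitin ligases and endocytic regulators, 2 of 12 passed in Panc1, both lower, and 7 of 12 in A549, 5 higher and 2 lower. NEURL1B, an E3 ligase of the Neuralized family that acts on Notch ligands, had 20.2, 16.6 and 18.9 CPM in Panc1 TGFb against 25.2, 29.8 and 31.6 CPM in siCont (−0.64 ± 0.10), but 30.0 and 28.5 CPM in A549 TGFb against 11.3 CPM in both siCont libraries (1.44 ± 0.13), and these responses differed by −2.01 ± 0.16 (adjusted p = 4.1e-12). Of the 5 other receptors and ligands, DLK2 passed in Panc1 (−0.50 ± 0.17, adjusted p = 0.029, lost without siCont A or C or TGFb A or B, 0.074 to 0.12) and none in A549.

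The pattern of JAG1 over the 8 group means, each line centred, was most like those of VCAN, RHBDL3 and PALLD among 9912 to 9913 genes (Pearson r = 0.995, 0.993 and 0.991). Those most like HEY1 were BRPF1, RHOB and FAM177A1 (r = 0.982, 0.981 and 0.975), and those most like NOTCH3 were TUBGCP3, USP9X and COX10 (r = 0.991, 0.988 and 0.980). These 8 means share libraries with each other's scaling and the correlations are a description.

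The authors' deposited tables for the other contrasts gave values of the same sign as the counts for each of the 10 genes that passed there. In Panc1 TGFβ the authors' deposited table gives JAG1 1.86, HES1 1.22, JAG2 −1.18 and NOTCH3 0.58 (log2), and in Panc1 siKLF10 NOTCH2 −0.43 and NOTCH1 −0.49. The authors' deposited table for TGFβ with and without siKLF10 has KLF10 at −0.92 in Panc1, so it reads as siKLF10+TGFb over TGFb, and it gives JAG1 1.03 and HEY1 1.42 there. In the A549 table of the same contrast JAG1 is 0.56 and JAG2 −0.64, again as the authors' deposited table has it. For A549 siKLF10, the authors' deposited table gives linear ratios of 1.52 for NOTCH3 and 1.21 for NOTCH2, and 0.98 for KLF10.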

How the data were processed

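Poly(A) RNA was sequenced from 20 libraries with a directional kit, per the labels' protocols. Per the submitters' processing notes, TopHat, Bowtie2, HTSeq 0.6.0 and DESeq2 were used with hg19; no source used here states whether counting used strand. The authors deposited raw gene counts per library and tables of their own comparisons with log2 fold changes, linear fold ratios and adjusted p-values. The rows for reads outside genes stayed out of totals and tests. From the counts, edgeR 4.0.16 in R 4.3.3 fitted quasi-likelihood models to all genes of a line (or of both lines, for comparisons between them) after filterByExpr (minimum count 10, minimum total 15) and trimmed-mean scaling, with Benjamini-Hochberg adjustment over all genes; a call is an adjusted p below 0.05. Alternatives were other scalings, no filter, DESeq2 1.42.0, a replicate block and leaving out each library; the fits were tested on simulated data. The members, gene lists and tests were chosen with earlier results of these data known. The 10 members are named in every comparison, and other pathway genes only where they passed. Genes of like pattern are the 3 with the highest correlation for the 3 members with the largest mean response, on log2(CPM + 0.5), among genes with at least 5 CPM. Levels per kilobase use the union of exons in the GENCODE basic annotation. Promoters are from RefSeq (GRCh38.p14), a different build from hg19, and no coordinate was carried between them.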

Additional observations from a re-analysis of the deposited data

Results flagged for a closer look

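The 14 differences below were picked out because an effect differed between conditions or lines in a test of the difference itself (edgeR's quasi-likelihood test, adjusted over all genes); all are log2 values. The TGFβ response was larger after siKLF10 for JAG1 in Panc1 (0.81) and A549 (0.55) and for HEY1 in Panc1 (1.61), and the A549 NOTCH3 response was more negative (−0.58). HEY1 passed the Panc1 count filter through the groups given TGFβ, so its interaction call supports nothing. That call was also lost with DESeq2 or library totals. Panc1 minus A549, the TGFβ response differed by 2.54 for NOTCH3, 1.17 for HES1, 0.28 for JAG1, −0.70 for NOTCH2 and −1.22 for JAG2. The JAG1 call among these was lost with the other scalings, with no filter and with DESeq2. The siKLF10 effect without TGFβ differed by −0.71 for NOTCH2 and −0.78 for NOTCH3. Under TGFβ it differed by 1.29 for HEY1, 0.44 for JAG1 and −0.81 for NOTCH2. The causes were not tested. In A549 KLF10 itself was hardly lowered, so the siKLF10 differences between lines also compare unequal knockdown.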

How the results depend on the processing

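Of the 135 effects of the 10 genes, 66 passed, and none of these changed sign under the alternatives run; 27 effects that did not pass changed sign under at least 1, and their log2 values follow. The cause of these changes was not tested. For Panc1 siKLF10+TGFb against TGFb, DLL1 was −0.25 (−0.60 to 0.12 leaving out 1 library), NOTCH3 was −0.026 (−0.18 to 0.058 leaving out 1 library), and HES4 was 0.26 (−0.048 to 0.50 leaving out 1 library). For Panc1 siKLF10+TGFb against siKLF10, DLL1 was 0.014 (−0.081 with library totals, −0.012 with the replicate block, −0.25 to 0.43 leaving out 1 library), NOTCH1 was 0.17 (−0.011 to 0.27 leaving out 1 library), and HES4 was 0.25 (−0.051 to 0.50 leaving out 1 library). For Panc1 interaction, NOTCH2 was 0.067 (−0.0023 with library totals), HES1 was 0.023 (−0.047 with library totals, −0.029 to 0.10 leaving out 1 library), HES4 was 0.0029 (−0.066 with library totals, −0.0046 with no filter, −0.010 with DESeq2, −0.016 with the replicate block, −0.30 to 0.24 leaving out 1 library), and JAG2 was −0.086 (−0.19 to 0.067 leaving out 1 library). For A549 TGFb against siCont, JAG2 was −0.020 (−0.080 to 0.049 leaving out 1 library). For A549 siKLF10 against siCont, NOTCH1 was −0.059 (−0.15 to 0.054 leaving out 1 library), JAG1 was 0.031 (−0.031 to 0.092 leaving out 1 library), HES1 was 0.11 (−0.018 to 0.21 leaving out 1 library), and HEY1 was 0.37 (−0.15 to 0.75 leaving out 1 library). For A549 siKLF10+TGFb against TGFb, NOTCH3 was 0.0065 (−0.013 with library totals, −0.0060 to 0.024 leaving out 1 library), and HES4 was −0.19 (−0.42 to 0.087 leaving out 1 library). For A549 interaction, NOTCH1 was −0.039 (−0.16 to 0.046 leaving out 1 library), HEY1 was 0.24 (−0.15 to 0.76 leaving out 1 library), and RBPJ was −0.066 (−0.18 to 0.082 leaving out 1 library). For TGFb response Panc1 against A549, HEY1 was 0.024 (−0.024 with RLE scaling, −0.0048 with library totals, −0.075 with no filter, −0.36 to 0.38 leaving out 1 library). For siKLF10 effect Panc1 against A549, RBPJ was 0.0049 (−0.021 with RLE scaling, −0.030 with no filter, −0.020 with DESeq2, −0.015 to 0.025 leaving out 1 library), HEY1 was −0.018 (0.039 with library totals, −0.40 to 0.51 leaving out 1 library), and HES4 was 0.13 (−0.039 to 0.23 leaving out 1 library). For siKLF10 effect under TGFb Panc1 against A549, NOTCH3 was −0.066 (−0.23 to 0.022 leaving out 1 library), RBPJ was −0.11 (−0.27 to 0.016 leaving out 1 library), and HES1 was −0.14 (−0.31 to 0.10 leaving out 1 library).

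The number of the 10 genes called moved by over 1.5 times in 5 comparisons. In the Panc1 interaction it was 2, and 1 with library totals or DESeq2 and 1 to 2 leaving out a library. Leaving out a library gave 3 to 6 in A549 TGFb against siCont (5 in all libraries), 1 to 3 in A549 siKLF10 against siCont (2), 5 to 8 in A549 siKLF10+TGFb against siKLF10 (8) and 2 to 4 in the A549 interaction (2). Over all genes, DESeq2 called 1725 against 2758 in A549 siKLF10 and 559 against 916 in the A549 interaction. Leaving out a library gave 1326 to 4040 and 379 to 2685 in these, 349 to 1035 in the Panc1 interaction (584), 2237 to 5409 in A549 siKLF10+TGFb against TGFb (3996), 1570 to 2840 for the siKLF10 effect between lines (2597) and 1895 to 3321 for it under TGFβ (2979). Scaling by library totals moved the share of calls that were higher to 64.4% from 48.6% in Panc1 siKLF10, to 32.8% from 50.4% in Panc1 siKLF10+TGFb against siKLF10 (median of all genes −0.11), to 31.5% from 57.9% in the Panc1 interaction, and to 60.9% from 49.8% and 49.9% from 38.0% for the siKLF10 effects between lines without and with TGFβ.

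The labels do not say that the replicate letters pair samples. Deviations of same-letter libraries correlated at −0.17 to 0.33 in Panc1 (2 of 18 pairs over 0.1) and −0.036 to 0.12 in A549 (2 of 12 pairs). Between Panc1 siKLF10 and siKLF10+TGFb they were 0.33 for A, 0.13 for B and −0.0077 for C. With 2 libraries per A549 group the deviations of A and B mirror each other, so both letters give the same value. These correlations cannot decide whether the letters pair samples. With the replicate block, NOTCH1 between siCont lines was −0.28 (adjusted p = 0.083) and JAG2 in A549 siKLF10 was −0.31 (adjusted p = 0.045); no other call of the 10 genes changed. Low depth limits HEY1 in Panc1 and DLL1 in both lines.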
